A study of Mus musculus with 16 samples.

Results

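Clock output factors are the transcription factors through which the circadian clock passes its rhythm on to other genes. Those described here are 8 of the 22180 genes measured in mouse gonadal white adipose tissue: the PAR bZIP activators Dbp, Tef and Hlf, their antagonist Nfil3, the repressors Ciart, Bhlhe40 and Bhlhe41, and the nuclear receptor Rora. They were chosen by symbol, with earlier results of these data known. Each was read from the probe set annotated to that symbol alone, and Tef, the only member with more than 1 such probe set, from the one with the higher mean over the 16 arrays. The tissue came from male C57BL/6 mice of 3 to 4 months. In the fed group (8 samples) food was freely available, and in the fasted group (8 samples) it had been withdrawn for 16 hours. Both groups were sampled in the morning, at a clock hour that the labels leave unstated. The study asked which transcripts of this depot change on fasting. Nothing in the labels says whether the samples came from different mice, so the p-values cover the spread between the arrays at hand, which may be technical.

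The clock is a feedback loop of transcription. CLOCK or NPAS2, paired with BMAL1, binds E-boxes and switches on the Period and Cryptochrome repressors of its own activity, and the same step drives Dbp, Tef, Hlf and the Rev-erb receptors. DBP, TEF and HLF bind a shared motif, the D-box, through a basic leucine zipper. NFIL3, also called E4BP4, binds the same motif and represses. BHLHE40 and BHLHE41, known as the DEC proteins, and CIART, also called CHRONO, restrain the activator at E-boxes, and RORA competes with the Rev-erb receptors at a motif found in Arntl, the gene of BMAL1, and in Nfil3. In fat these factors connect the time of day with lipid storage and release, and feeding time is itself a timing signal for the clock of this tissue.

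The promoters are shown because the E-box is the element on which the activator and the repressors of this group meet. It occurs near the start of members that fell on fasting and of Ciart, a dim member that was not called. Whether the E-box bears on these changes was not tested. RefSeq promoter windows of assembly GRCm38.p6, each from 250 bases before to 50 bases after a transcript start, were matched for 7 of the 8 members, all but Bhlhe40. On either strand the E-box letters CACGTG, a palindrome, occurred in the windows of 3 members, Tef, Bhlhe41 and Ciart, and in 7.15% of all 32851 windows. The windows of Dbp, Hlf, Nfil3 and Rora did not hold these letters. Sequence outside the windows, including most of each gene, was not searched, so these members may hold E-boxes there. The stretches around these E-boxes, each on its gene's strand and upstream of the annotated gene, read as follows, with the E-boxes in capitals.
Tef, chr15:81802516-81802581, plus strand: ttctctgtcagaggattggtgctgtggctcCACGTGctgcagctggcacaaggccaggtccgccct
Bhlhe41, chr6:145865538-145865603, minus strand: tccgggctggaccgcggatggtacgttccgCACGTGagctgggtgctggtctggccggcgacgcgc
Ciart, chr3:95882258-95882374, minus strand: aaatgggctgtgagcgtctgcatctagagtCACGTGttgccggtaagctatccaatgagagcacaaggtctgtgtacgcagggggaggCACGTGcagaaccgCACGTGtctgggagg

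Ciart held 3 E-boxes, beginning 116, 58 and 44 bases before the transcript start of its window, and 0.0883% of all windows held 3 or more. That start lies inside the annotated gene, whose outer end is nearer to the E-boxes. The E-box of Tef began 127 bases before its start, that of a second, downstream start of Tef 138 bases before it, and that of Bhlhe41 153 bases before. The D-box letters TTATGTAA and TTACGTAA and the RORE consensus, the ROR and Rev-erb motif, were searched on both strands and occurred in no member's window. They occurred in 0.938%, 0.119% and 0.384% of all windows. The shorter ROR core motif AGGTCA, which can lie within the RORE, occurred in that of Nfil3 and in 16.3% of all windows, and the cAMP response element TGACGTCA in that of Hlf, beginning 9 bases before the start, and in 1.79%. These are matches of letters and not measured binding sites.

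Values are the authors' log2 expression values after RMA, a normalization that gives all arrays a shared distribution, so changes are relative to the other transcripts. Genes with a limma p below 0.05 after Benjamini-Hochberg adjustment across the 22180 genes are termed called. By this rule 19.2% of genes were called, 8.49% as higher and 10.7% as lower in fasted samples. Higher genes made up 44.3% of calls, and 54.7% after subtraction of array medians. Markers of fat cells were bright: Adipoq, which encodes adiponectin, had a mean of 10.84 ± 0.10 in the fed and of 10.72 ± 0.13 in the fasted group (SD, n = 8). Of the 8 adipocyte markers 2 rose and 2 fell. The mean log2 level of 13 epithelial and motile cilia markers was highest in fed replicate 2 (5.77) and fasted replicate 7 (5.25), against group medians of 3.44 and 3.51, and that of 13 hepatocyte markers was highest in fed replicate 3 (9.27), against 7.20 and 7.68. None of the cilia markers was called, and 1 hepatocyte marker rose.

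Dbp, whose transcript has one of the strongest daily rhythms in many organs, had the largest fold change of the 8 members. The fed arrays ran from 6.95 through a median of 7.09 to 8.43 on the log2 scale, and the fasted arrays from 5.51 through 5.69 to 6.30. All 8 fasted arrays lay below all 8 fed arrays, with 0.65 on the log2 scale between the groups. The means were 7.37 ± 0.53 and 5.76 ± 0.24 (SD, n = 8), a 3.04-fold difference with a 95% interval from 2.31 to 3.99 (limma adjusted p = 4.87e-06). It was the only member whose groups did not overlap, which held for 3.45% of all genes in this direction. The fed values were uneven, with replicates 1 and 3 at 8.43 and 7.93 and the other 6 no higher than 7.34.

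**Figure D1:**
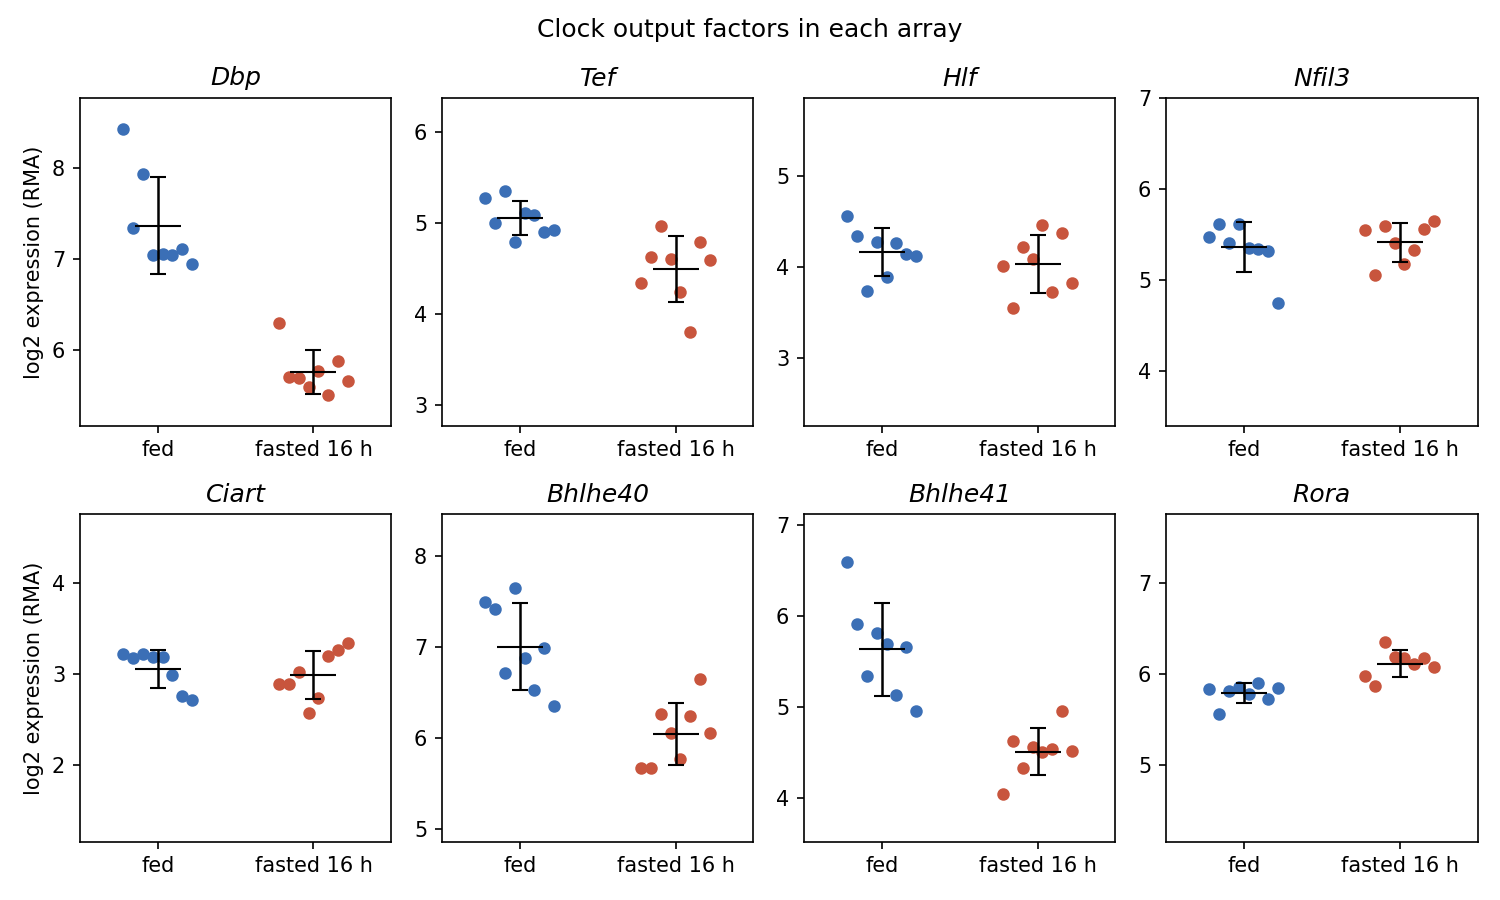
Log2 expression (vertical axis, RMA values) of the 8 members in fed arrays (blue) and arrays fasted for 16 hours (red). Points are single arrays, in order of replicate number from left to right, the black line is the group mean and the bars its SD (n = 8), and every panel spans the same number of log2 units. The groups are apart in Dbp, overlap by single arrays in Bhlhe41 and Rora, and coincide in Hlf, Nfil3 and Ciart.

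Tef, the PAR bZIP factor first described in the thyrotroph cells of the pituitary, fell by a smaller step. Its fed arrays ran from 4.79 through 5.05 to 5.35 and its fasted arrays from 3.80 through 4.61 to 4.97. Of the fasted arrays 7 lay below every fed array, and fasted replicate 3 reached 4.97. Fed replicates 4, 7 and 8 lay below that value, and fasted replicate 7 and fed replicate 4 both stood at 4.79. The fold difference was 1.47, with a 95% interval from 1.21 to 1.79 (limma adjusted p = 0.00559). The other probe set of Tef was dimmer and had means of 3.83 and 3.42, a difference of -0.41 that did not pass when the lower probe set stood for each gene (limma adjusted p = 0.0889).

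Hlf, the third activator, was not called. It ran from 3.73 through 4.20 to 4.56 in fed arrays and from 3.55 through 4.05 to 4.46 in fasted arrays, so the groups shared most of their range. The log2 fold change was -0.13, with a 95% interval from -0.42 to 0.15 (limma adjusted p = 0.601), an interval that does not reach the fall of Dbp. Hlf was dim: its linear value, the antilog of the deposited one, reached 20 in 4 of the 16 arrays. An array understates differences on such signals.

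Nfil3, the repressor of the D-box, was also not called. Its fed arrays ran from 4.75 through 5.38 to 5.62 and its fasted arrays from 5.05 through 5.48 to 5.65. The log2 fold change was 0.06, with a 95% interval from -0.19 to 0.30 (limma adjusted p = 0.823). Fed replicate 8 lay apart at 4.75, and without it the difference was -0.03 (limma adjusted p = 0.888).

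Whether these 4 factors changed unequally was tested on the difference between genes within each array, by exact two-sided permutation of the 16 samples, with adjustment over the 8 pairs of members compared. The value of Dbp minus Nfil3, activator against repressor of one motif, fell from 2.01 to 0.35 on the log2 scale, a change of -1.66 with a 95% interval from -2.10 to -1.21 (adjusted p = 4.14e-04, exact permutation). Its fed arrays ran from 1.42 to 2.96 and its fasted arrays from 0.01 to 0.75, without overlap. Within the PAR bZIP family, Dbp fell further than Tef by 1.04 (95% interval of the change -1.49 to -0.60, adjusted p = 9.32e-04, exact permutation) and further than Hlf by 1.47 (-1.96 to -0.98, adjusted p = 4.14e-04, exact permutation). The unadjusted p was 1.55e-04 for Dbp against Hlf and against Nfil3, the smallest that 8 against 8 samples can give.

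Tef changed relative to Nfil3 by -0.62 (95% interval -0.97 to -0.26, adjusted p = 0.00472, exact permutation), and with samples paired by replicate number it no longer passed (adjusted p = 0.05, exact sign-flip permutation). The change of Tef relative to Hlf was -0.43 (-0.84 to -0.01), which did not pass (adjusted p = 0.0559, exact permutation). It did pass without fed replicate 4 (-0.48, adjusted p = 0.0404) or fasted replicate 2 (-0.51, 0.0126), 3 (-0.47, 0.0483) or 8 (-0.47, 0.0458), each by exact permutation. Hlf relative to Nfil3 changed by -0.19 (-0.54 to 0.16, adjusted p = 0.266, exact permutation). In this family the measured fall was thus larger for Dbp than for Tef and Hlf, and these samples did not settle whether Tef and Hlf differed. Tef and Hlf were dimmer, with mean log2 values of 4.78 and 4.10 against 6.56 for Dbp. How far dim signal enlarged these differences was not tested.

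The DEC genes fell together. Bhlhe40, which is also induced by hypoxia and many other signals, ran from 6.35 through 6.94 to 7.64 in fed arrays and from 5.67 through 6.05 to 6.65 in fasted arrays. Fasted replicate 7, at 6.65, was the only fasted array within the fed range, and fed replicates 6 and 8 were the fed arrays below it. The means were 7.00 ± 0.47 and 6.04 ± 0.34 (SD, n = 8), a 1.94-fold difference with a 95% interval from 1.48 to 2.54 (limma adjusted p = 9.82e-04).

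Bhlhe41, its close relative with a narrower tissue range, ran from 4.96 through 5.67 to 6.59 in fed arrays and from 4.05 through 4.53 to 4.96 in fasted arrays. The highest fasted array, replicate 7, and the lowest fed array, replicate 8, both stood at 4.96, and the other 7 arrays of each group were apart. The means were 5.63 ± 0.51 and 4.51 ± 0.26 (SD, n = 8), a 2.18-fold difference with a 95% interval from 1.67 to 2.84 (limma adjusted p = 1.75e-04). Dbp and Bhlhe41 were the 2 members that fell by at least 2-fold, and 0.748% of all genes were called lower with a fall of at least that size. The falls of Bhlhe40 and Bhlhe41 differed by 0.17 on the log2 scale (95% interval -0.12 to 0.46, adjusted p = 0.266, exact permutation), so a difference of up to about that upper bound remains possible.

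Ciart, the repressor with 3 promoter E-boxes, was not called. It ran from 2.71 through 3.18 to 3.21 in fed arrays and from 2.57 through 2.95 to 3.33 in fasted arrays, and the fasted range enclosed the fed range. The log2 fold change was -0.06 with a 95% interval from -0.30 to 0.18 (limma adjusted p = 0.795). Its linear value reached 20 in 0 of 16 arrays, and on such dim signals an array understates differences. Dbp changed relative to Ciart by -1.54 (95% interval -1.99 to -1.09, adjusted p = 4.14e-04, exact permutation). How far dim signal enlarged that difference was not tested.

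Rora was the only member that rose. It encodes an activating receptor of the clock loop that is also found in lymphoid cells. Its fed arrays ran from 5.56 through 5.83 to 5.91 and its fasted arrays from 5.87 through 6.14 to 6.36. Of the fasted arrays 7 lay above every fed array, and fasted replicate 2 fell just short at 5.87. The difference was small but even, 0.33 on the log2 scale with a 95% interval from 0.18 to 0.48 (limma adjusted p = 0.00273), on means of 5.79 ± 0.11 and 6.12 ± 0.15 (SD, n = 8). In tissue made of many cell types, a change in the number of cells of a type and a change in RNA per cell cannot be told apart. This holds for Rora and for the other members.

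Together 4 members fell (Dbp, Tef, Bhlhe40 and Bhlhe41), 1 rose and 3 were not called. That is 62.5% called, against 19.2% of all genes. The members were chosen with earlier results of these data known, so this share describes them and does not test the group. A filter kept the 10832 genes whose linear value reached 20 on 8 or more arrays. It kept 6 of the members, of which 4 were called lower and 1 higher, and 42% of the genes it kept were called. The median log2 fold change was -0.35 over the 8 members and -0.0042 over all genes. Without fed replicates 2 and 3 and fasted replicate 7, which stood apart by their epithelial or hepatocyte markers, the log2 fold changes were -1.53 for Dbp, -0.56 for Tef, -1.02 for Bhlhe40, -1.19 for Bhlhe41 and 0.29 for Rora, and all 5 passed the test in limma.

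**Figure D2:**
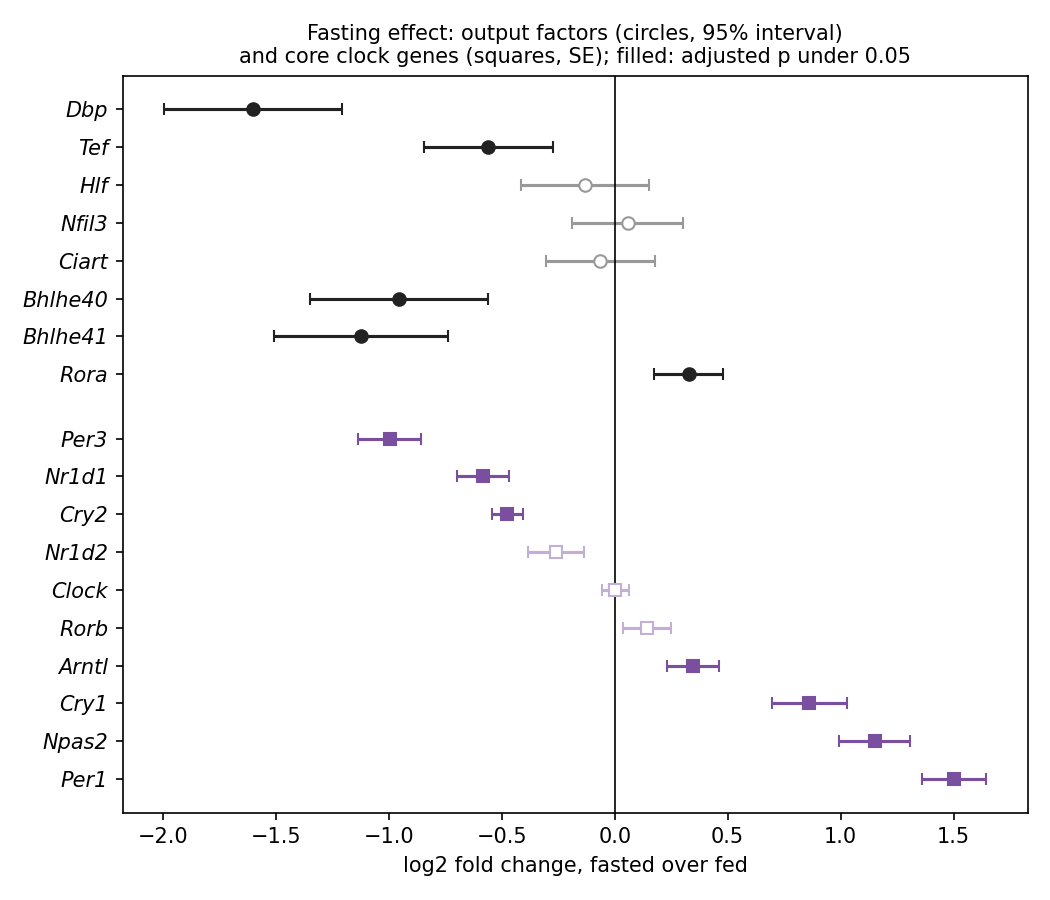
Log2 fold change of fasted over fed samples (horizontal axis) for the 8 members (circles, bars are 95% intervals) and for the 10 measured core clock genes (squares, bars are SE), with filled symbols for genes called in limma. Of the members Dbp lies farthest to the left, at -1.60, and Rora alone is filled on the right, at 0.33.

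Some markers of other cells of the depot moved as well, and their part in these changes was not tested. Beside their counts stand 19.2% called among all genes and 42% among those kept by the filter on dim genes. Of 6 endothelial markers 3 rose and none fell, and their mean log2 level ran from 8.94 to 9.32 in fed and from 9.29 to 9.57 in fasted arrays. Of 7 fibroblast and preadipocyte markers 2 fell, with means of 9.23 to 9.46 and 8.91 to 9.57, and of 6 mesothelial markers 1 fell, with means of 7.33 to 7.96 and 6.57 to 8.03. The macrophage list and the smooth muscle and pericyte list, with 6 markers each, had 1 higher and 1 lower each. Of the 6 measured markers of NK and innate lymphoid cells, cells in which Nfil3 and Rora also act, 1 rose and 1 fell, and their mean ran from 3.60 to 4.01 in fed and from 3.64 to 4.04 in fasted arrays. None of 6 T and B lymphocyte markers and 7 epididymal markers was called. Of 6 skeletal muscle markers 1 rose, and the 1 measured red blood cell marker was not called.

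The members also varied among samples of a group. Within-group SDs on the log2 scale lay between 0.109 for Rora in fed arrays and 0.533 for Dbp in fed arrays, and the SD was the larger one in fed arrays for 4 of the 8. Fed replicate 8 was the lowest fed array for 5 members (Dbp, Nfil3, Ciart, Bhlhe40 and Bhlhe41), and fed replicate 1 the highest for 4 (Dbp, Hlf, Ciart and Bhlhe41). Among the fasted arrays, replicate 2 was the lowest for 4 (Hlf, Nfil3, Bhlhe40 and Rora). Some of these places were near ties. Fed replicates 1 and 3 both stood at 3.21 for Ciart, and fasted replicates 1 and 2 both at 5.67 for Bhlhe40.

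Correlations between members were computed within each group for every pair of members, and none of the 56 passed adjustment by exact permutation. At an unadjusted p under 0.05 there were 4 by Pearson's r and 3 by Spearman's rho, all in fed arrays. Whether the groups differ in these relations was not tested. The closest pair was Bhlhe40 and Bhlhe41, with r = 0.860 in fed arrays (exact permutation p = 0.00496, adjusted 0.139, n = 8) and rho = 0.905 (exact permutation p = 0.00456, adjusted 0.256). Without the 2 arrays farthest from the median of Bhlhe40, r was 0.924. In fasted arrays r was 0.602 (exact permutation p = 0.109, adjusted 0.594, n = 8) and rho 0.238 (exact permutation p = 0.582, adjusted 0.886). Nfil3 had r = 0.788 with Bhlhe40 in fed arrays (exact permutation p = 0.00394, adjusted 0.139) and 0.768 with Ciart (exact permutation p = 0.00789, adjusted 0.147). Without the 2 arrays farthest from the median of Nfil3 these were 0.714 and 0.539. Its rho was 0.810 with Bhlhe40 and 0.786 with Bhlhe41 (exact permutation p = 0.0218 and 0.0279, both adjusted 0.423). With Bhlhe41 the r of Nfil3 in fed arrays was 0.640 (exact permutation p = 0.107, adjusted 0.594). In fasted arrays its r was 0.513 with Bhlhe40, 0.483 with Ciart and -0.178 with Bhlhe41 (exact permutation p = 0.196, 0.222 and 0.672). Dbp and Tef had r = 0.783 in fed arrays (exact permutation p = 0.0207, adjusted 0.290, n = 8) and rho = 0.667 (exact permutation p = 0.0831, adjusted 0.423), but 0.128 without fed replicates 1 and 3, on which this relation rested. In fasted arrays r was 0.0766 (exact permutation p = 0.841, adjusted 0.942, n = 8).

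**Figure D3:**
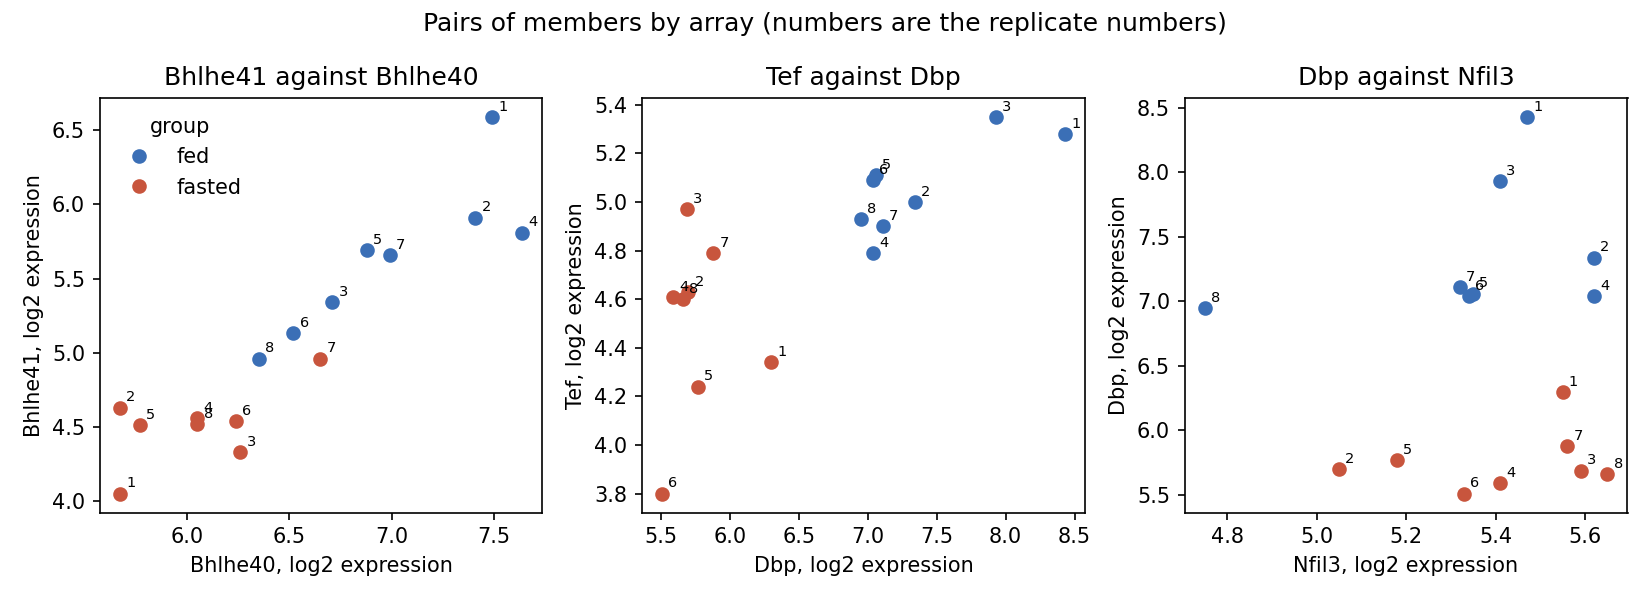
Log2 expression of Bhlhe41 against Bhlhe40, Tef against Dbp and Dbp against Nfil3 (each axis a log2 RMA value), with 1 point per array, fed in blue and fasted in red, labelled by replicate number. The DEC genes rank the fed arrays much alike (rho = 0.905), the high values of Tef and Dbp are those of fed replicates 1 and 3, and Dbp separates the groups over a shared range of Nfil3.

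Over both groups, with each value taken as its deviation from the group mean, the members were compared with the 11090 genes whose mean was above the median of all genes. These likenesses are descriptions over 16 arrays, and high values are common at the top of so long a search. For Bhlhe41 the most alike gene of all was Bhlhe40 (r = 0.782), ahead of H13 (0.774) and Cachd1 (0.773), and Bhlhe41 ranked at 5 for Bhlhe40, behind Hnrnpm (0.830), Abcd3 (0.819) and Tra2b (0.810) among others. Dbp was nearest to Taf8 (0.838), Lgals9 (0.793) and Smo (0.792), Tef to A430033K04Rik (0.843), Prim1 (0.804) and Pde1a (0.790), and Hlf to Ghdc (0.852), Irf2bp1 (0.851) and Ankrd10 (0.849). Nfil3 was nearest to Phf20l1 (0.875), Zfp451 (0.828) and Jade2 (0.826), Ciart to Nup153 (0.880), Eif3c (0.839) and Snapc4 (0.822), and Rora to Marchf3 (0.887), Ogdh (0.860) and Alkbh8 (0.858).

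The loop that drives these factors moved both ways. Of 10 measured core clock genes 4 rose and 3 fell, with a median log2 fold change of 0.07. For comparison with this list and the clock lists that follow, 19.2% of all genes were called. Of the genes kept by the filter on dim genes 42% were called. The lists were chosen with earlier results of these data known, so their counts are descriptions. Per1, a repressor that also responds directly to hormones, rose 2.83-fold, Npas2, a partner of BMAL1, 2.22-fold and Cry1 1.82-fold (limma adjusted p = 4.33e-07, 2.51e-05 and 8.00e-04). Per3 fell by 1.00 on the log2 scale, Nr1d1, the gene of Rev-erb alpha, which represses at the motif of RORA, by 0.58 and Cry2 by 0.47 (limma adjusted p = 3.43e-05, 0.00101 and 5.47e-05). The fourth that rose was Arntl, by 0.35 (limma adjusted p = 0.0411), named after its value was seen. Its call was lost without any 1 of fed replicates 1, 2, 3 and 8 and fasted replicates 1, 2, 4, 5, 6 and 7, with array weights, in the exact rank sum test and without the 3 arrays that stood apart (adjusted p = 0.0577 to 0.184 in limma or the exact rank sum test).

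Of 22 measured genes with a daily rhythm in many tissues, a list that includes most of the core clock genes, 8 rose and 5 fell, with a median of 0.10. Fkbp5, a chaperone induced by glucocorticoids, rose 2.12-fold and Leo1, a part of a transcription elongation complex, fell by 0.48 (limma adjusted p = 1.23e-05 and 0.00103). Of 15 measured modulators of the clock, 2 rose and 3 fell. The chromatin regulator Kdm5a rose by 0.32 and the deacetylase Sirt1 by 0.22, the latter a call lost without fed replicate 4, fasted replicate 3, fasted replicate 5 or the 3 arrays that stood apart, each of which left 1 higher gene (limma adjusted p = 0.0514 to 0.0532). Prkaa2, a catalytic subunit of the energy sensor AMPK, fell by 0.64 and Timeless by 0.49. Btrc, which marks Period proteins for breakdown, fell by 0.21, a call lost in 14 of 25 alternatives, among them those without any 1 of fed replicates 2, 3, 4, 5 and 6 and fasted replicates 2, 6, 7 and 8 (limma adjusted p = 0.0544 to 0.219).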

How the data were processed

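Gene expression in 8 fed and 8 fasted samples was measured on Affymetrix whole-transcript arrays from 100 ng of total RNA per sample, per the labels' protocols. The authors deposited log2 values made with RMA, per the submitters' processing notes. For its software, version and filters, nothing is given in the sources used here. That the scale is log2 follows from the range (0.994 to 13.2, array medians 3.60 to 3.69). No scan batch was given, and no array pair was identical. The number of arrays limits the precision.

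Of 41345 probe sets 23521 had 1 symbol in the platform annotation, 1814 had several and 16010 were unnamed here. The probe set with the highest mean was kept for each of 22180 genes. The groups were set against each other in limma 3.58.1 under R 4.3.3 (lmFit on group alone, eBayes), with no filter. On simulated data for this comparison over 22180 genes, 58.2% of 67 changes of 0.5, 97% of 67 changes of 1 and 98.5% of 66 changes of 2 on the log2 scale were recovered, with 11 false calls. The simulation changed only these genes and drew independent normal noise. In the real data 4251 genes were called, so these rates need not hold there. Exact permutations used Python 3.11.15 with scipy 1.17.1. Intervals for pairs of members are pooled-variance intervals.

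The members, lists and pairs were chosen with earlier results of these data known. Named genes were all members, up to 3 called genes of each clock list in each direction by size, and the 3 genes most like each member. Alternatives were a filter on dim genes, subtraction of array medians, cyclic loess, trend and robust eBayes, array weights, a replicate block, leaving out single arrays, the lowest probe set and an exact rank sum test. Leaving out 3 arrays was chosen after seeing the data.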

Additional observations from a re-analysis of the deposited data

Results flagged for a closer look

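Among the 16 sets of 8 values (8 members in 2 groups), 2 held an array whose gap to its nearest neighbour was large against the range of its group by Dixon's test at the 95% level, which chance gives in about 1 of 20 groups. Dbp stood at 6.30 in fasted replicate 1, above 5.51 to 5.88 in the other fasted arrays and below every fed array. Nfil3 stood at 4.75 in fed replicate 8, below 5.32 to 5.62 in the other fed arrays.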

How the results depend on the processing

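In all 25 alternatives Dbp, Bhlhe40, Bhlhe41 and Rora kept direction and call, with log2 fold changes of -1.68 to -1.40, -1.05 to -0.86, -1.22 to -0.99 and 0.29 to 0.37 (differences of medians for the rank sum test). Tef lost its call in 1 of 25, with the lowest probe set (-0.41, limma adjusted p = 0.0889). Nfil3 was never called and lay between -0.03 and 0.11 with each array left out, with the sign turned without fed replicate 8 (-0.030). Hlf and Ciart were never called in the 24 alternatives that kept them. They did not pass the filter on dim genes. The change of Tef relative to Hlf lay between -0.51 and -0.32 with each array left out (adjusted p = 0.0126 to 0.117, exact permutation). With the replicate block, here an exact sign-flip test over the 8 pairs, Tef relative to Nfil3 stayed at -0.62 with an adjusted p of 0.05, and the lowest p this test can give is 0.00781. The block changed no other call among the members and their pairs. It gave 3829 called genes against 4251. No pairing by number was seen in the values, which does not exclude one. The correlation of deviations between same-numbered arrays ran from -0.216 to 0.218, and 3 of 16 arrays correlated best with their own number. Higher calls among clock modulators were 1 without the 3 arrays that stood apart and 1 to 2 with each array left out. Counts for the other clock lists stayed within 1.5 times of those given. Dim signal limits Ciart, Hlf and the second probe set of Tef.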
